A study of Mus musculus with 12 samples.

Results

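The 37 genes described here act in homologous recombination, in the Fanconi anaemia pathway or in the DNA damage checkpoint. They were chosen by name, by the Entrez identifier of each gene, from the 27179 genes of the deposited count table, by a rule that used no measured value. RNA-seq was performed on 12 libraries from male C57BL/6 mice (Pep3b background, 6 to 12 weeks old), with 2 biological replicates at each of 6 stages of B cell differentiation. Naive B cells were sorted from spleen, with IgM+IgDhi among the surface markers of the gate. The other stages were cultured with 25 μg/ml lipopolysaccharide (LPS) of Salmonella typhosa, a bacterial cell wall component that activates B cells. Activated cells that had not yet divided were sorted as CD69+ B cells with the highest CellTrace Violet signal, a dye diluted at each division, after 3 h, 10 h and 33 h. On day 4 of culture, CD22+CD138- cells were sorted as expanded B cells and CD22-CD138+ cells as plasmablasts. The day 4 cultures were set up at a lower cell density than those of the earlier time points. Between the earlier time points and day 4, density and stage therefore cannot be told apart. Whether animals were pooled for a library is not given in the sources used here.

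Homologous recombination repairs broken DNA by copying an intact sister chromatid, so it operates mainly in S and G2 phase. Broken ends are cut back to single strands, BRCA1 and BRCA2 with their partners prepare these for pairing with the sister, and RAD54 proteins assist the exchange of strands. The Fanconi anaemia pathway opens crosslinked DNA through the monoubiquitination of FANCD2 and FANCI, and the kinases ATM and ATR with their effectors CHK2, CHK1 and p53 halt the cell cycle when DNA is damaged or replication stalls. Activated B cells divide at a high rate and also cut their own immunoglobulin genes during class switching.

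Promoter windows are shown because many members rose over the same interval, and as background, many genes of the S phase programme carry binding letters of E2F factors near their start and many late cell cycle genes carry CCAAT boxes. RefSeq windows (GRCm38.p6) of 300 bases, 250 before and 50 after a transcript start, were at hand for 28 of the 37 members, with 31 windows in all. The E2F letters TTTCCCGC or TTTGGCGC, searched on both strands, were found in 4 of the 31 windows (12.9%), against 1.56% of all promoter windows and 2.86% of those of tested genes. The windows that hold them belong to Bard1, Chek2, Brca2 and Rad51c and are shown 5′ to 3′ along the gene, with these letters in capitals and a match on the opposite strand reading GCGGGAAA.
Bard1, chr1:71102923-71103222, minus strand: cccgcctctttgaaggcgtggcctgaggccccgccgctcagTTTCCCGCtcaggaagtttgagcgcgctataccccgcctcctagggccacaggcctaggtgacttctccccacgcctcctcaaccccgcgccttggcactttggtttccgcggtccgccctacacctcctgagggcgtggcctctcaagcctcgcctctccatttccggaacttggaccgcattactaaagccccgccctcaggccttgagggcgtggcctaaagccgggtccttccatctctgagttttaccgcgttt
Chek2, chr5:110839733-110840032, plus strand: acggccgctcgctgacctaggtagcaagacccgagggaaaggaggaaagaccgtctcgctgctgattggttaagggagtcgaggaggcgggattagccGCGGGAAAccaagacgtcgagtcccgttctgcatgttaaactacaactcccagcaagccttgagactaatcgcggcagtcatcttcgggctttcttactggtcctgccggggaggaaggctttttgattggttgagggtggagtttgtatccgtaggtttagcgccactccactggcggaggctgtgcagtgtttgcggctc
Brca2, chr5:150522371-150522670, plus strand: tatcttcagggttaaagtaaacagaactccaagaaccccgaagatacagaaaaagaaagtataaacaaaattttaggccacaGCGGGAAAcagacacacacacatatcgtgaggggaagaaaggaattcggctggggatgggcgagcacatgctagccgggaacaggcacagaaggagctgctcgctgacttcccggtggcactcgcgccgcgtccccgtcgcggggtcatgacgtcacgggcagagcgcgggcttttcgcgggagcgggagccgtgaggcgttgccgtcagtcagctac
Rad51c, chr11:87404905-87405204, minus strand: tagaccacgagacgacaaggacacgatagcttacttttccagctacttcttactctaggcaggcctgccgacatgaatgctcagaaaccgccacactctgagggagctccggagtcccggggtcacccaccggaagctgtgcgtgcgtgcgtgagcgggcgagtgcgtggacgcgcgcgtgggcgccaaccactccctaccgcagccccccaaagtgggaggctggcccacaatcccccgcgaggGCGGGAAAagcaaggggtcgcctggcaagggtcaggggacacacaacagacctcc
With the start itself counted as 0, the letters stand from -209 to -202 in Bard1, from -152 to -145 in Chek2, from -168 to -161 in Brca2 and from -5 to 2 in Rad51c. The CCAAT letters were found in 21 of the 31 windows (67.7%), against 37.4% of all promoter windows and 37.9% of those of tested genes. Overlapping windows of Rad54l, and of Rad51b, hold the same match. Counted by gene, 19 of the 28 members had the letters, against 4273 of 9919 tested genes with a window. The windows of Brip1, Ube2t and Xrcc3 hold several of them and are shown with CCAAT, or ATTGG where it lies on the opposite strand, in capitals.
Brip1, chr11:86201144-86201443, minus strand: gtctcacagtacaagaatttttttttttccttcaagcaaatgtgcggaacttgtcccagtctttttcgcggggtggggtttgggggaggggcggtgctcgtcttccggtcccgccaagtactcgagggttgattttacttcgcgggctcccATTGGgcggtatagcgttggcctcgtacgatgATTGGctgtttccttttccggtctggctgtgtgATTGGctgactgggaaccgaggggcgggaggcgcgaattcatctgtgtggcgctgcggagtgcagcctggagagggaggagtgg
Ube2t, chr1:134962315-134962614, plus strand: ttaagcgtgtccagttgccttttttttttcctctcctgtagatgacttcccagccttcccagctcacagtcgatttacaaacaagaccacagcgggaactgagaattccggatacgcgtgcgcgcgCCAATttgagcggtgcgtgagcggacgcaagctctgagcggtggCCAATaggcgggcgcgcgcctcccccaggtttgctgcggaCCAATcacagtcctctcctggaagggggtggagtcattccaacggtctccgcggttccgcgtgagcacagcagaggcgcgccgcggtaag
Xrcc3, chr12:111813830-111814129, minus strand: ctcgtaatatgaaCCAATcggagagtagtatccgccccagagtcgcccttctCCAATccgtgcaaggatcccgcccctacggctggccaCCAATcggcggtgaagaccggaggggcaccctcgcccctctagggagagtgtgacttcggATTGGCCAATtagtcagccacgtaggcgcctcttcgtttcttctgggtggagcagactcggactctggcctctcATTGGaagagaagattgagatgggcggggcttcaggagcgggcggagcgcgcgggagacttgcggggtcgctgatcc
Brip1 and Ube2t have 3 such matches each and Xrcc3 has 6. The letters TTTGAA of the cell cycle homology region (CHR), an element of late cell cycle promoters, were in 3 windows (9.68%), against 12.3% of the windows of tested genes. Matches of the 3 motifs did not overlap in any member's window. A match describes letters only, and a window without one says nothing about the factor.

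Total counts ran from 23026619 to 60585587 per library, with a median of 37839944.5. The lowest count of any member was 9 (Rad54b at 3 h), so the least expressed members rest on few counts. Summed markers of myeloid cells stood at 121 to 275 CPM (counts scaled to the library total) and those of erythroid cells at 146 to 196 CPM in the naive libraries. At all later stages the erythroid sum was at most 2.11 CPM. The sum of the 7 myeloid markers went from 2.43 to 4.64 CPM (3 h) to 7.87 to 10.1 (10 h), 20.2 to 28.5 (33 h), 35.3 to 37.5 (expanded) and 0.341 to 0.582 (plasmablast). Of these 7, Lyz2, Csf1r, S100a8 and S100a9 had 3 counts or fewer in every later library, while Itgam and Adgre1 stood at 5.43 and 4.92 RPKM and at 4.23 and 4.35 RPKM in expanded B cells, and at most at 0.0226 and 0.12 RPKM in plasmablasts. The part of these cells in the changes at any step was not tested. The 5 B cell markers were present at every stage (8700 CPM summed or more), and the 5 plasmablast markers reached 16400 to 16900 CPM in plasmablasts. Of the B cell markers, Ighm went from 5410 and 5510 RPKM (naive) to 52200 and 46000 (plasmablast). Ms4a1, Cd79a, Cd79b and Ighd were lower in plasmablasts than in naive cells. Ighd went from 2880 and 2890 RPKM to 2.65 and 3.99. T cell and NK cell markers summed to at most 3.21 and 12.6 CPM, both in naive libraries, and the 2 activation markers reached 572 to 580 CPM at 3 h. In such bulk samples, fewer cells of a type and less RNA per cell cannot be told apart.

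Most members were low in resting cells and highest just before the first division. Levels are given as RPKM (read counts scaled by exon length and by library size after TMM normalization), which allows genes of different length to be compared. The median member stood at 2.21 and 2.14 RPKM (naive), 1.21 and 1.18 (3 h), 3.16 and 3.50 (10 h), 9.01 and 9.99 (33 h), 9.16 and 9.02 (expanded), and 6.46 and 6.14 (plasmablast). The mean of the 2 replicates was highest at 33 h for 27 of the 37 members. For 23 of these both 33 h libraries lay above every other library. The matching shares of all tested genes were not computed for any count of stages or levels in this paragraph. These counts thus have no background beside them and describe the members only. Plasmablasts were the highest stage for 4 members (Brca1, Ube2t, Chek2 and Mdm2) and expanded B cells for Fancm and H2afx. The highest stage was 3 h for Rbbp8 and Trp53, and 10 h for Rad51d and Atr. The order of plasmablasts and expanded B cells rests on the TMM scale. Library size alone moved the median of all tested genes by -0.34 from expanded B cells to plasmablasts. None of the 4 members was called up at that step. The lowest stage was 3 h for 18 members, naive for 11 and plasmablast for 7. At 3 h 14 members averaged less than 1 RPKM, while at 33 h and in expanded B cells none did.

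**Figure D1:**
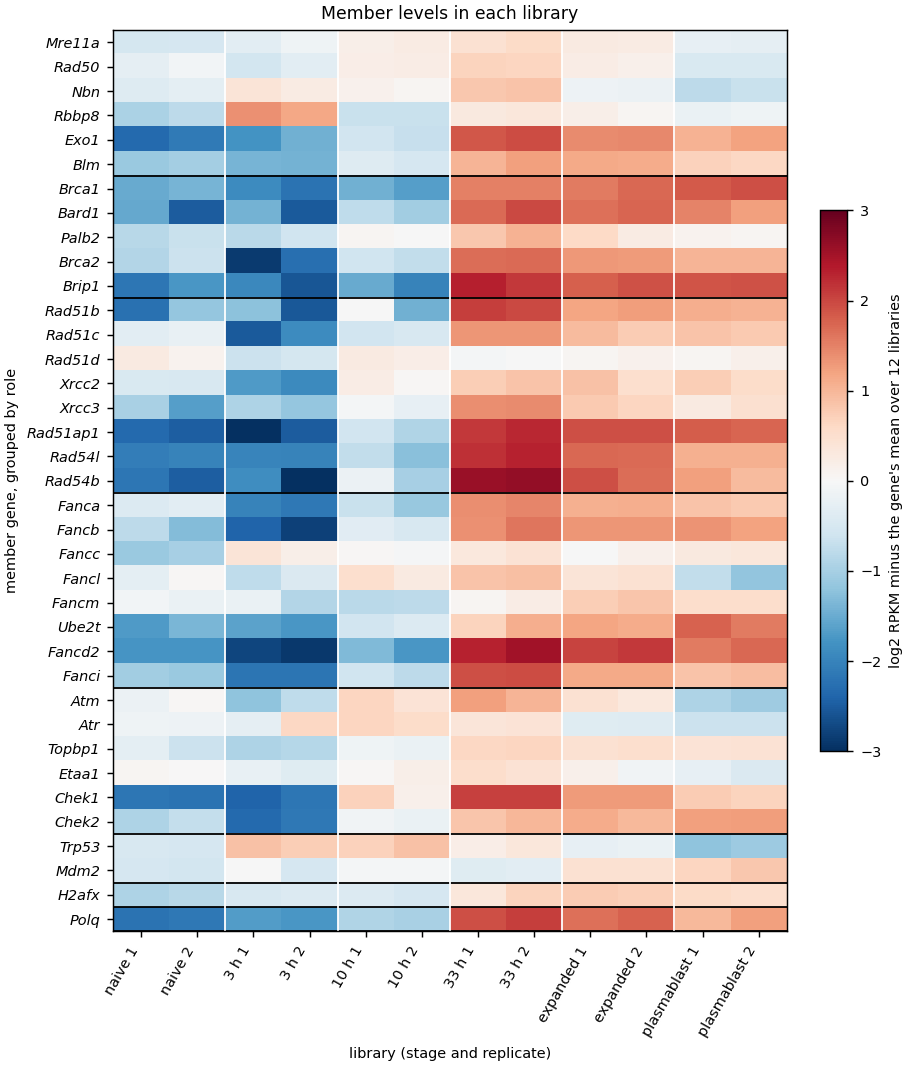
Log2 RPKM of each of the 37 members (rows, grouped by role) in each of the 12 libraries (columns), as the difference from the gene's mean over all libraries, with red above and blue below that mean. Most rows turn from blue to red between 10 h and 33 h. On the TMM scale used, Trp53 and Rbbp8 are highest at 3 h and Mdm2 in plasmablasts.

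Consecutive stages were then compared over all 12750 genes that passed the filter on low counts. The call of a change required edgeR's glmTreat against a 1.5-fold threshold and an adjusted p (Benjamini-Hochberg) under 0.05. Of the members 36 were tested, since genes of the X chromosome were left out, and Fancb is given from the same fit with all genes kept. Between naive cells and 3 h, 3 members rose (background 21% of all tested genes) and 9 fell (background 24.3%), with a median log2 fold change of -0.27 against -0.03 for all tested genes. For a change of any size, the quasi-likelihood F-test placed 8 up (background 34.7%) and 15 down (background 36.3%). From 3 h to 10 h, 17 rose (background 17.4%) and 1 fell (background 13.4%), with a median of 0.93 against 0.02, and the F-test placed 27 up (background 32.1%) and 1 down (background 30.2%). From 10 h to 33 h, 23 rose (background 10.1%) and 0 fell (background 4.45%), with a median of 1.23 against -0.02. The F-test placed 32 up (background 23.2%) and 2 down (background 22.2%) at that step. At an unadjusted p under 0.05 glmTreat still placed 0 down both here and from naive cells to 33 h, as did DESeq2's Wald test with adjustment. Over the whole interval from naive cells to 33 h, 31 members rose (background 22.3%) and 0 fell (background 20.8%), with a median of 1.71, and the F-test placed 33 up (background 35.8%) and 0 down (background 35.1%).

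Beyond 33 h few members passed the 1.5-fold threshold in a single step. From 33 h to expanded B cells 0 rose (background 6.94%) and 2 fell (background 3.66%), with a median of -0.37. The F-test called 2 up (background 18.5%) and 20 down (background 21.2%) there. Between expanded B cells and plasmablasts 0 rose (background 13.9%) and 3 fell (background 12.2%), with a median of -0.28, and the F-test called 1 up (background 27.2%) and 16 down (background 29.7%). At an unadjusted p under 0.05 glmTreat placed 1 up at the earlier of these steps and 0 up at the later, and DESeq2's Wald test against the same threshold called 0 up at both. Across both steps, from 33 h to plasmablasts, 1 member rose (background 20%) and 15 fell (background 19.3%), with a median of -0.71, and the F-test called 5 up (background 31.6%) and 24 down (background 35.8%). Scaling by library size alone moved the median of all tested genes by -0.21 up to 3 h, 0.33 from 3 h to 10 h, -0.34 between expanded B cells and plasmablasts and -0.35 from 33 h to plasmablasts, and members are read relative to the TMM scale.

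**Figure D2:**
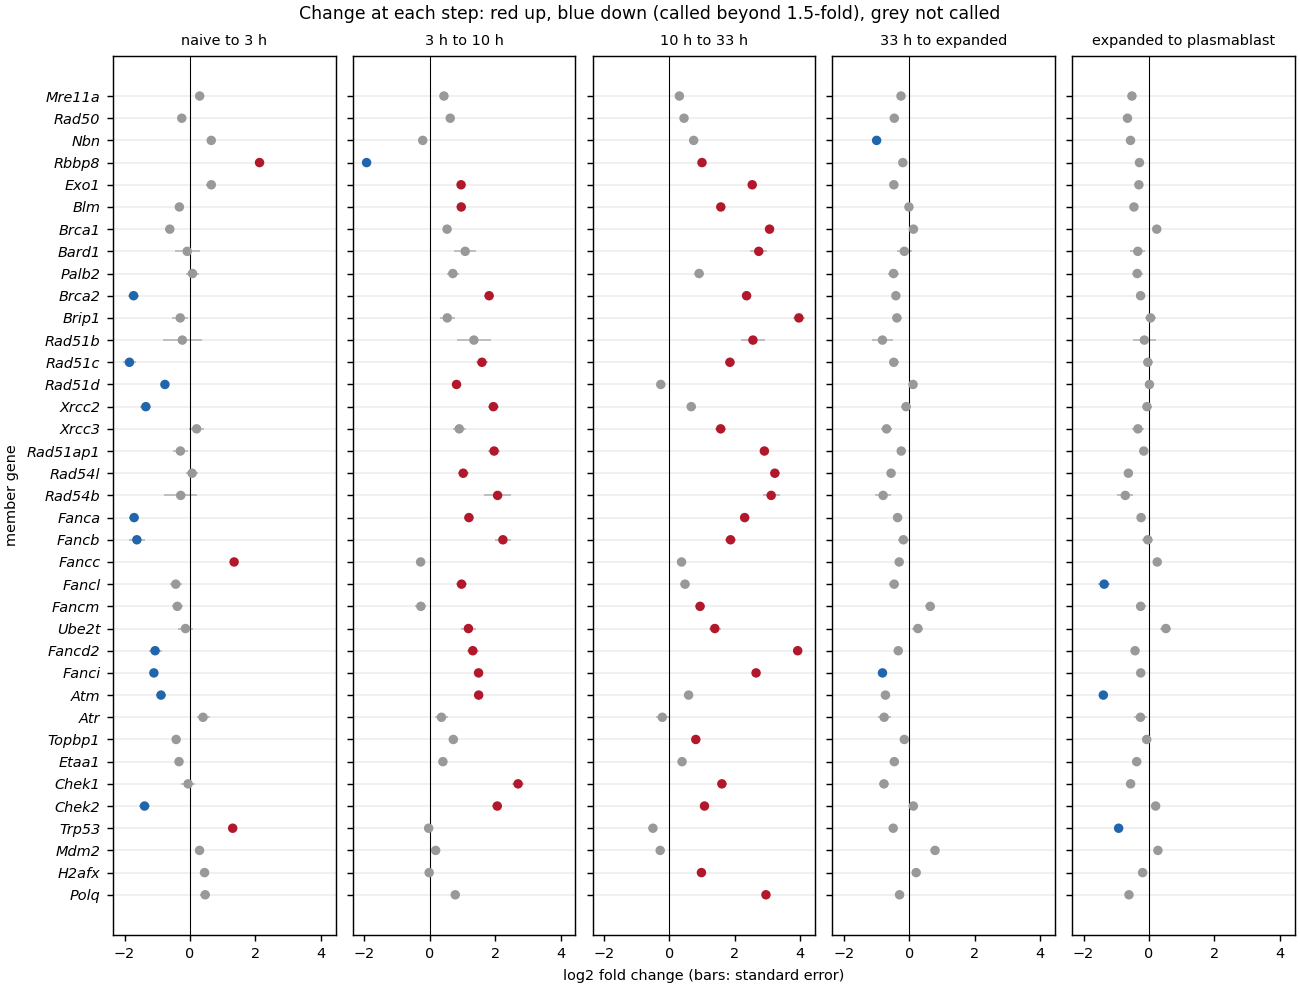
Log2 fold change (horizontal axis, with its standard error as a bar) of each member at each of the 5 steps between consecutive stages, in red where called up, in blue where called down and in grey where not called. The third panel, from 10 h to 33 h, has 24 red points with Fancb included and 0 blue points, and the largest is that of Brip1 at 3.96.

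Of the 6 genes that sense and cut back broken ends 2 rose (background 17.4%) and 1 fell (background 13.4%) from 3 h to 10 h. From 10 h to 33 h 3 rose (background 10.1%). The nuclease partner Rbbp8 (CtIP) had a level at 3 h above that of any other stage. It had 5.43 and 6.16 RPKM (naive), 27.2 and 23.4 (3 h), 6.62 and 6.63 (10 h), 13.0 and 13.4 (33 h), 12.0 and 11.0 (expanded) and 9.22 and 9.60 (plasmablast). Both 3 h libraries therefore lay above all others. Rbbp8 rose by 2.13 on the log2 scale up to 3 h (standard error 0.11, adjusted p = 1.56e-08 from glmTreat in edgeR) and was the only member called down from 3 h to 10 h, at -1.93 (adjusted p = 1.53e-07 from edgeR). It rose again by 0.99 up to 33 h.

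The exonuclease Exo1 and the helicase Blm, which extend the cut, rose up to 33 h. Exo1 had 0.681 and 0.782 RPKM (naive), 0.992 and 1.26 (3 h), 2.31 and 2.13 (10 h), 12.5 and 13.2 (33 h), 9.16 and 9.37 (expanded) and 7.09 and 7.87 (plasmablast). Its libraries did not overlap between any consecutive stages, and from 10 h to 33 h it rose by 2.53 on the log2 scale (standard error 0.12, adjusted p = 1.77e-08 from edgeR). The rise of Exo1 from 3 h to 10 h, 0.96, was not called without 3 h replicate 1 (0.82). Blm rose by 0.96 from 3 h to 10 h and by 1.57 from 10 h to 33 h.

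The MRN complex, which binds broken ends and activates ATM, moved less. From 10 h to 33 h the log2 fold changes of Mre11a (nuclease), Rad50 (ATPase) and Nbn (the adaptor to ATM) were 0.30, 0.44 and 0.74, and none was called. From naive cells to 33 h all 3 rose, by 1.03, 0.82 and 1.17, of which the rise of Rad50 was not called without naive replicate 1 (0.73). Nbn then went from 17.5 and 18.1 RPKM (33 h) to 9.02 and 8.79 (expanded) and 5.78 and 6.26 (plasmablast). Its fall at the step to expanded B cells was -0.998 (standard error 0.10, adjusted p = 0.00188 from edgeR) and that from 33 h to plasmablasts -1.56. The subunits of this complex did not keep a constant ratio, as Nbn stood at 0.699 (33 h), 0.416 (expanded) and 0.404 (plasmablast) of the RPKM of Mre11a.

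Of the BRCA1, PALB2 and BRCA2 complexes 1 of 5 members rose from 3 h to 10 h (background 17.4%) and 4 of 5 from 10 h to 33 h (background 10.1%). Brca1, a ubiquitin ligase that promotes resection, had 1.48 and 1.62 RPKM (naive), 1.14 and 0.904 (3 h), 1.56 and 1.34 (10 h), 12.1 (both 33 h), 12.5 and 14.0 (expanded) and 15.2 and 16.1 (plasmablast). The 6 libraries up to 10 h overlapped in part, and the 6 later ones lay far above them. On the TMM scale the plasmablast libraries were highest. The rise from 10 h to 33 h was 3.06 (standard error 0.12, adjusted p = 4.22e-09 from edgeR), while the changes at the later steps, 0.13 and 0.24, were not called.

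Bard1, the obligate partner of Brca1, rose at the same step by 2.73 and Brip1, a helicase bound by BRCA1, by 3.96 (standard error 0.19, adjusted p = 8.59e-09 from edgeR), the largest change of any member there. Brip1 stood at 0.388 and 0.520 RPKM (naive), 0.458 and 0.298 (3 h), 0.612 and 0.439 (10 h), 8.78 and 7.67 (33 h), 6.05 and 6.61 (expanded) and 6.46 and 6.62 (plasmablast). Its 6 early libraries were all under 1 RPKM and its 6 later ones all above 6. Bard1 rested on as few as 20 counts, and its 3 h to 10 h change of 1.08 was called only without 3 h replicate 1 (1.63) among the fits that left out a library. Its change from naive cells to 33 h was 3.73, and 4.33 without naive replicate 1.

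Brca2, which acts on resected ends, had 0.853 and 1 RPKM (naive), 0.213 and 0.327 (3 h), 1.03 and 0.934 (10 h), 5.01 and 5.09 (33 h), 3.82 and 3.78 (expanded) and 3.18 (both plasmablast). The 3 h libraries were the lowest and the 33 h libraries the highest. Brca2 fell by 3 h (-1.73, adjusted p = 1.08e-05 from edgeR), then rose by 1.82 up to 10 h and by 2.36 up to 33 h. Palb2, which joins BRCA1 to BRCA2, was not called at any step between consecutive stages, at 0.91 from 10 h to 33 h, although without 33 h replicate 1 that change (1.02) passed. Over the whole interval from naive cells to 33 h Palb2 rose by 1.69. Brca2 stood at 0.316 of the RPKM of Palb2 at 3 h, at 1.94 times it at 33 h and at 2.19 times it in plasmablasts.

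Of the strand exchange genes 6 of 8 rose from 3 h to 10 h (background 17.4%) and 6 of 8 from 10 h to 33 h (background 10.1%). Rad51b, Rad51c, Rad51d, Xrcc2 and Xrcc3 differed in their change by 3 h. Rad51c had 1.99 and 2.14 RPKM (naive), 0.434 and 0.667 (3 h), 1.67 and 1.78 (10 h), 6.26 and 6.18 (33 h), 4.77 and 4.19 (expanded) and 4.46 and 4.30 (plasmablast). Rad51c fell by 3 h (-1.85, standard error 0.19, adjusted p = 1.73e-05 from edgeR), the largest fall of any member at that step. Its 3 h libraries held 23 and 60 counts. It rose by 1.60 and 1.85 at the next steps. Xrcc2 fell (-1.35) and then rose by 1.95 up to 10 h, with no call at any later step.

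Rad51d differed in that its level at 10 h, 4.71 and 4.49 RPKM, lay close to the naive level of 4.70 and 4.18 RPKM, and no later step was called. Its fall by 3 h, -0.77, was not called without naive replicate 1 (-0.68) or without 3 h replicate 1 (-0.71), and its rise to 10 h, 0.82, was not called without 3 h replicate 1 (0.77) or 10 h replicate 1 (0.79). From 10 h to 33 h it changed by -0.27 and was not called. Xrcc3 rose by 1.57 and Rad51b by 2.55 from 10 h to 33 h, with no call at the earlier steps. Rad51b rested on as few as 13 counts, and its replicates at 10 h stood at 0.872 and 0.326 RPKM. Its rise to 33 h was 3.47 without 10 h replicate 1, its rise from naive cells to 33 h was 3.67, or 4.27 without naive replicate 2, and its 3 h to 10 h change of 1.35 was called only without 10 h replicate 2 (1.86) among the fits that left out a library.

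Other strand exchange genes had some of the widest ranges. Rad51ap1, which promotes strand pairing, had 0.885 and 0.803 RPKM (naive), 0.547 and 0.787 (3 h), 3.00 and 2.39 (10 h), 19.3 and 21.3 (33 h), 17.1 (both expanded) and 15.8 and 14.9 (plasmablast). It rose by 1.97 and 2.90 at the steps to 10 h and 33 h. The translocase Rad54l stood at 1.06 and 1.11 RPKM (naive), 1.14 and 1.12 (3 h), 2.70 and 1.87 (10 h), 20.6 and 22.3 (33 h), 14.7 and 14.5 (expanded) and 9.42 and 9.43 (plasmablast). Its rise from 10 h to 33 h was 3.22 and its fall from 33 h to plasmablasts -1.19, and both sets of libraries were apart. The rise of Rad54l up to 10 h, 1.02, was not called without 10 h replicate 1 (0.72).

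Rad54b, the other RAD54 protein, was the least expressed member at 5 of the 6 stages. It had 0.0964 and 0.0770 RPKM (naive), 0.119 and 0.0419 (3 h), 0.383 and 0.217 (10 h), 2.59 and 2.67 (33 h), 1.65 and 1.37 (expanded) and 1.01 and 0.825 (plasmablast). The rise from 3 h to 10 h, 2.07, became 2.85 without 3 h replicate 1 and 1.37, no longer called, without 3 h replicate 2. From 10 h to 33 h Rad54b rose by 3.11 (standard error 0.26, adjusted p = 3.28e-06 from edgeR). In GENCODE M21, 35.8% of its exonic bases also belong to Fsbp on the same strand, and 15.4% of those of Rad54l to Lrrc41 on the opposite strand, so reads there cannot be assigned with certainty.

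In the Fanconi anaemia pathway 5 of 7 tested members rose from 3 h to 10 h (background 17.4%) and 5 of 7 from 10 h to 33 h (background 10.1%). The substrates of the ubiquitin ligase had the widest ranges of level in this group. Fancd2 had 0.674 and 0.673 RPKM (naive), 0.338 and 0.309 (3 h), 0.909 and 0.680 (10 h), 11.3 and 13.0 (33 h), 9.35 and 9.86 (expanded) and 6.75 and 7.54 (plasmablast). The highest stage was 37.5 times the lowest, the widest range of all 37 members. The lowest stage, 3 h, rests on 29 and 45 counts. Fancd2 fell by 3 h (-1.07, or -1.02 and not called without 3 h replicate 2), rose by 1.32 up to 10 h and by 3.92 up to 33 h (standard error 0.14, adjusted p = 2.29e-09 from edgeR). Its change from 33 h to plasmablasts, -0.76, was called only without 33 h replicate 1 (-0.86) among the fits that left out a library.

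Fanci, which forms a clamp with FANCD2, stood at 2.21 and 2.12 RPKM (naive), 1 and 1.01 (3 h), 3.01 and 2.64 (10 h), 17.6 and 17.9 (33 h), 10.1 and 10.0 (expanded) and 8.25 and 8.66 (plasmablast). It fell by 3 h (-1.10) and rose by 1.49 and 2.65 at the following steps. Its fall from 33 h to expanded B cells, -0.82 (adjusted p = 0.0322 from edgeR), was not called without any single one of the 4 libraries, where it ran from -0.83 to -0.81. Fancd2 was present at 0.279 (10 h), 0.683 (33 h) and 0.954 (expanded) of the RPKM of Fanci, and the replicates did not overlap between these 3 stages. In GENCODE M21, 16% of the exonic bases of Fanci are shared with Polg on the opposite strand.

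Subunits of the Fanconi core complex did not move together. Fanca fell by 3 h (-1.71) and rose by 1.20 and 2.30, and Fancb, from the fit with all genes kept, changed by -1.63, 2.24 and 1.87, each called. Fanca shares 10.5% of its exonic bases with Zfp276 on the opposite strand. Fancc took the opposite course at the first step. It had 1.78 and 1.92 RPKM in naive cells and 5.07 and 4.39 at 3 h, a rise of 1.35 (standard error 0.13, adjusted p = 1.87e-05 from edgeR), and stayed between 3.79 and 5.23 RPKM in every later library with no further call. Of its exonic bases 16.4% overlap the antisense gene Gm16133.

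Fancl, the ligase subunit that transfers ubiquitin, had 5.86 and 7.34 RPKM (naive), 4.27 and 5.36 (3 h), 10.3 and 8.71 (10 h), 13.1 and 13.4 (33 h), 9.39 and 9.87 (expanded) and 4.32 and 3.16 (plasmablast). The plasmablast libraries lay below those of 10 h, 33 h and expanded B cells, and overlapped those of 3 h. Fancl fell from expanded B cells to plasmablasts, at -1.37 on the log2 scale (standard error 0.18, adjusted p = 0.00052 from edgeR). Its rise from 3 h to 10 h, 0.97, was not called without 3 h replicate 1 (0.83) or 10 h replicate 1 (0.84), and that from naive cells to 33 h, 1.01, not without naive replicate 1 (0.86). It shares 13.7% of its exonic bases with Vrk2 on the opposite strand.

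Ube2t, the ubiquitin-conjugating enzyme that works with FANCL, stood highest where Fancl was lowest. It had 7.48 and 9.99 RPKM (33 h), 10.6 and 10.2 (expanded) and 16.1 and 13.8 (plasmablast), and its change from 33 h to plasmablasts, 0.78, was called only without 33 h replicate 2 (0.99) or plasmablast replicate 2 (0.94) among such fits. It rose by 1.18 up to 10 h, or 1.11 and not called without 3 h replicate 2, and by 1.39 up to 33 h. Fancm, a translocase that recognises stalled forks, was highest in expanded B cells at 4.23 and 4.53 RPKM. Its only call, a rise of 0.93 from 10 h to 33 h (adjusted p = 0.0435 from edgeR), was lost without any single one of the 4 libraries (0.86 to 1.01).

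Of the damage kinases and their activators 3 of 6 rose at each of the steps to 10 h (background 17.4%) and 33 h (background 10.1%). The kinases followed different courses. Atm, which responds to broken DNA, had 7.57 and 8.74 RPKM (naive), 3.70 and 5.07 (3 h), 13.4 and 11.4 (10 h), 20 and 17.3 (33 h), 11.8 and 10.7 (expanded) and 4.47 and 4.07 (plasmablast). Both plasmablast libraries lay below those of every stage but 3 h. Atm rose by 1.496 from 3 h to 10 h and fell from expanded B cells to plasmablasts (-1.40, standard error 0.15, adjusted p = 9.5e-05 from edgeR) and from 33 h to plasmablasts (-2.13, adjusted p = 3.21e-07), the largest fall of any member over that interval. Its fall by 3 h, -0.89, was not called without naive replicate 2 (-0.78) or 3 h replicate 1 (-0.68).

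Atr, which responds to stalled replication, had 6.24 and 6.16 RPKM (naive), 5.71 and 10.5 (3 h), 10.8 and 10.1 (10 h), 8.84 and 9.14 (33 h), 5.32 and 5.24 (expanded) and 4.42 and 4.39 (plasmablast). The 3 h replicates were far apart, and no step between consecutive stages was called. Without 3 h replicate 1 the change from naive cells to 3 h, 0.40, became 0.77 and was called, and without 3 h replicate 2 that from 3 h to 10 h, 0.36, became 0.89 and was called. From 33 h to plasmablasts Atr fell by 1.03, a call that was lost without 33 h replicate 2 (-1.01) or either plasmablast library (-0.98 and -0.97).

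The activators of ATR also differed. Topbp1 had 42.8 and 43.8 RPKM at 33 h and 37 and 37.4 RPKM in plasmablasts, a change of -0.22 that was not called. Its rise from 10 h to 33 h, 0.80 (adjusted p = 0.0477 from edgeR), was lost without any single one of the 4 libraries (0.77 to 0.85). Etaa1 stood at 8.51 and 7.93 RPKM at 33 h and 4.91 and 4.33 RPKM in plasmablasts, a fall of -0.83 that was not called without 33 h replicate 1 (-0.79) or plasmablast replicate 2 (-0.69). Topbp1 was present at 3.35 times the RPKM of Etaa1 in naive cells and at 8.08 times in plasmablasts.

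The effector kinases separated after 33 h. Chek1, the target of ATR, had 0.861 and 0.833 RPKM (naive), 0.739 and 0.870 (3 h), 6.28 and 4.30 (10 h), 16.1 (both 33 h), 9.46 and 9.37 (expanded) and 6.63 and 6.14 (plasmablast). Chek2, the target of ATM, had 2.41 and 2.80, 0.918 and 1.04, 4.25 and 4.01, 8.23 and 9.17, 9.91 and 9.02, and 10.8 and 11.0 RPKM at the same stages. On the TMM scale Chek1 was thus highest at 33 h and Chek2 in plasmablasts, although Chek2 was not called up from expanded B cells to plasmablasts.

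Chek1 rose from 3 h to 10 h by 2.70 (standard error 0.18, adjusted p = 4.48e-07 from edgeR), the largest rise of any member at that step, and by 1.60 up to 33 h, then fell by 1.34 from 33 h to plasmablasts. Chek2 fell by 3 h (-1.39) and rose by 2.06 and 1.07, and its change from 33 h to plasmablasts was 0.33, not called. Chek1 stood at 0.328 of the RPKM of Chek2 in naive cells, at 1.86 times it at 33 h and at 0.586 of it in plasmablasts. These are ratios of mRNA levels only.

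**Figure D3:**
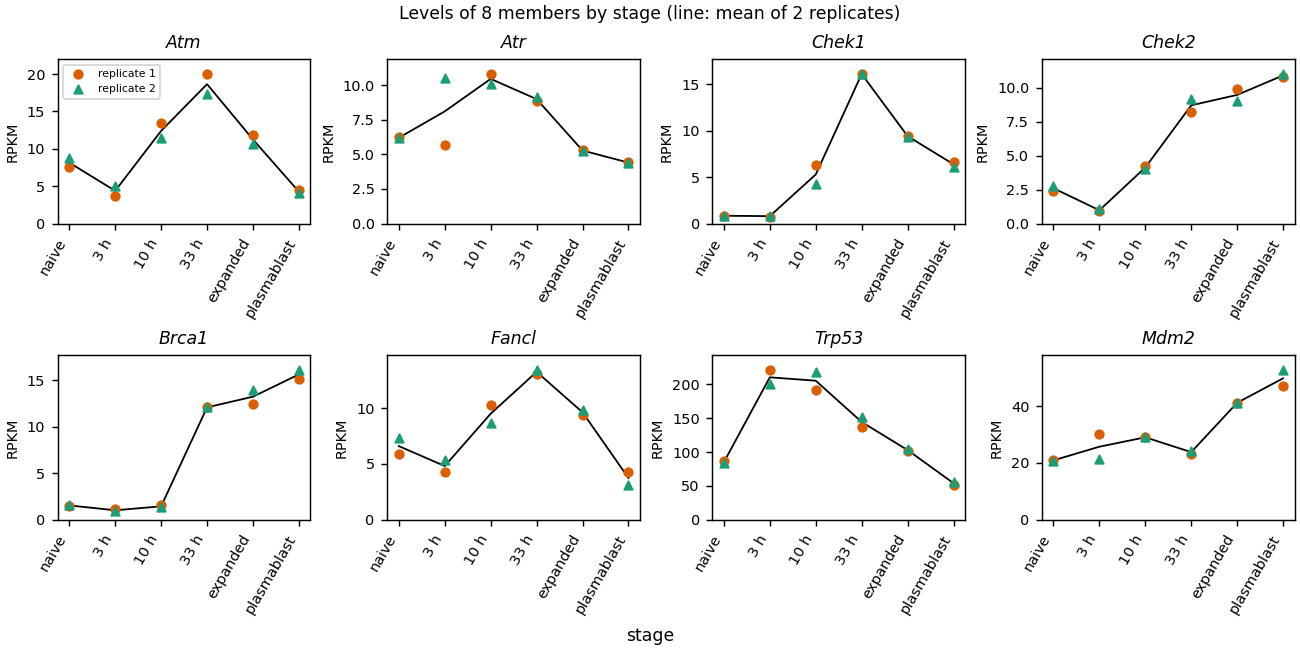
RPKM (vertical axis, from 0) of 8 members at the 6 stages (horizontal axis), with a point for each replicate and a line through the mean of 2. Atm, Chek1 and Fancl peak at 33 h and fall in plasmablasts. On the TMM scale used, Chek2, Brca1 and Mdm2 are highest in plasmablasts. Trp53 is highest at 3 h and 10 h, and the 3 h replicates of Atr lie apart at 5.71 and 10.5 RPKM.

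The p53 axis was represented by Trp53 and Mdm2. Trp53, which encodes p53, had 86.2 and 84.1 RPKM (naive), 221 and 200 (3 h), 192 and 219 (10 h), 137 and 152 (33 h), 101 and 105 (expanded) and 51.7 and 56.4 (plasmablast). The 3 h and 10 h libraries overlapped and lay above all others, and the plasmablast libraries lay below all others. It rose by 3 h by 1.31 (standard error 0.10, adjusted p = 2.59e-06 from edgeR) and fell from expanded B cells to plasmablasts (-0.93, adjusted p = 0.00202 from edgeR). From naive cells to 33 h it rose by 0.76, a call that was lost without naive replicate 1 (0.79), naive replicate 2 (0.76) or 33 h replicate 2 (0.70).

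Mdm2, the ubiquitin ligase that degrades p53 and is itself a p53 target, had 21.2 and 20.6 RPKM (naive), 30 and 21.4 (3 h), 29.0 (both 10 h), 23.3 and 24.3 (33 h), 41.1 and 41.2 (expanded) and 46.9 and 52.6 (plasmablast). The day 4 libraries lay above all earlier ones. Mdm2 was the only member called up from 33 h to plasmablasts, at 1.06 (standard error 0.13, adjusted p = 0.000862 from edgeR), a call that was lost when library size alone set the scale (0.72). Mdm2 stood at 0.246 of the RPKM of Trp53 in naive cells, 0.121 (3 h), 0.142 (10 h), 0.165 (33 h), 0.400 (expanded) and 0.919 (plasmablast). The scale of a library cancels in such a ratio, and the replicates of the last 3 stages did not overlap between stages.

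**Figure D4:**
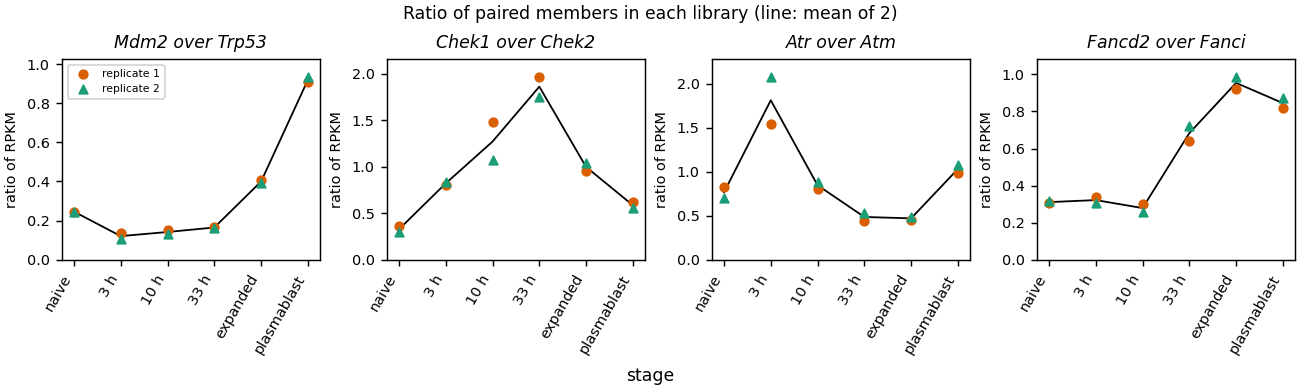
Ratio of the RPKM of paired members within each library (vertical axis, from 0) at the 6 stages, with a point per replicate and a line through the mean of 2. Mdm2 over Trp53 climbs to 0.919 in plasmablasts, Chek1 over Chek2 peaks at 1.86 at 33 h, Atr over Atm peaks at 1.81 at 3 h, and Fancd2 over Fanci is highest in expanded B cells at 0.954.

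The histone variant H2afx, which is phosphorylated around breaks, was among the most abundant members. It had 56.1 and 60.4 RPKM (naive), 77.1 and 81.3 (3 h), 81.0 and 75.5 (10 h), 136 and 172 (33 h), 182 and 175 (expanded) and 159 and 153 (plasmablast). It was the highest member by mean RPKM at 33 h and in both day 4 populations, and its only call between consecutive stages was the rise of 0.98 from 10 h to 33 h (adjusted p = 0.00314 from edgeR).

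Polq encodes polymerase theta, which joins ends by short homologies outside homologous recombination. Its level was 0.332 and 0.345 RPKM (naive), 0.482 and 0.453 (3 h), 0.814 and 0.785 (10 h), 5.89 and 6.48 (33 h), 4.82 and 5.26 (expanded) and 3.02 and 3.57 (plasmablast). It rose from 10 h to 33 h by 2.95 (standard error 0.12, adjusted p = 4.36e-09 from edgeR). Its fall from 33 h to plasmablasts, -0.91, was not called without plasmablast replicate 1 (-0.74).

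The 15 members that fell from 33 h to plasmablasts (background 19.3% of all tested genes) were spread over the groups. They were 4 of the 6 end sensing and resection genes (Nbn, Rad50, Mre11a and Exo1), 4 of the 6 kinases and activators (Atm, Chek1, Atr and Etaa1), 3 of the 8 strand exchange genes (Rad54b, Rad54l and Xrcc3), 2 of the 7 tested Fanconi genes (Fancl and Fanci), Trp53 and Polq. None of the 5 genes of the BRCA complexes was among them, with a median of -0.49 for that group. With 5 genes and a background of 19.3%, this does not set the group apart. The difference between groups was not tested. Both falls of the resection pair Mre11a (-0.77) and Exo1 (-0.78) were lost without 33 h replicate 2 (-0.72 and -0.75), without plasmablast replicate 1 (-0.72 and -0.65) and without plasmablast replicate 2 (-0.71 and -0.80). The fall of Xrcc3, -1.03, was lost without plasmablast replicate 1 (-0.87), and Palb2, at -0.84 and not called, passed without 33 h replicate 1 (-0.96). At the earlier step from 3 h to 10 h, Rad50, at 0.63 and not called, passed without 3 h replicate 2 (0.77).

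Other genes of the same pathways were set beside the members, on lists by name that were drawn up with earlier results of these data known. From 10 h to 33 h, 14 of 32 other recombination and Fanconi genes rose (background 10.1%), with a median log2 fold change of 0.37. The largest rises among them were those of Hrob (3.84), which recruits a helicase to recombination sites, of the nuclease and helicase Dna2 (3.48) and of Eme1 (3.30), a partner of the MUS81 nuclease. Of 24 other checkpoint and damage chromatin genes 9 rose (background 10.1%), with a median of 0.31. The largest rises were those of the phosphatase Cdc25c (4.37) and of Clspn (3.97), the adaptor that presents CHK1 to ATR. The median of the 36 tested members at this step was 1.23.

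Genes of S phase, G2 and mitosis rose at the same step. All 20 tested S phase genes but 1 were called up (19 of 20, background 10.1%, median 2.04), and 15 of 15 G2 and mitosis genes were (median 4.33). Summed over its genes, the S phase list stood at 782 and 642 RPKM at 10 h and at 2390 and 2660 at 33 h, and the G2 and mitosis list at 57.8 and 49.0 and then at 684 and 1130. The replicates at 33 h thus differed more on the mitotic list than on the S phase list. From 33 h to plasmablasts 9 S phase genes fell (background 19.3%, median -0.74), while 3 of 15 G2 and mitosis genes rose (background 20%, median 0.30). That count was 6 without 33 h replicate 2, 0 without 33 h replicate 1, 1 without either plasmablast library, 1 with DESeq2's Wald test and 0 when library size alone set the scale. The part of the cell cycle stage of the sorted cells in the members' levels was not tested.

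Over that last interval, 1 of the 32 other recombination genes rose (Swi5, 1.30, background 20%) and 5 fell (background 19.3%). The falls included Faap100, a subunit of the Fanconi core complex, at -2.69 and Rmi2, a partner of BLM, at -1.61. Of the 24 other checkpoint genes 2 rose (background 20%), Cdc25b (2.75) and Cdc25c (0.95), and 6 fell (background 19.3%). Among the falls were Hus1 (-1.30), part of the 9-1-1 clamp, and Trp53bp1 (-1.18), which opposes resection. Both counts of falls lay near the share of all tested genes. When library size alone set the scale, the falls numbered 16 and 12, for which no background was computed.

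**Figure D5:**
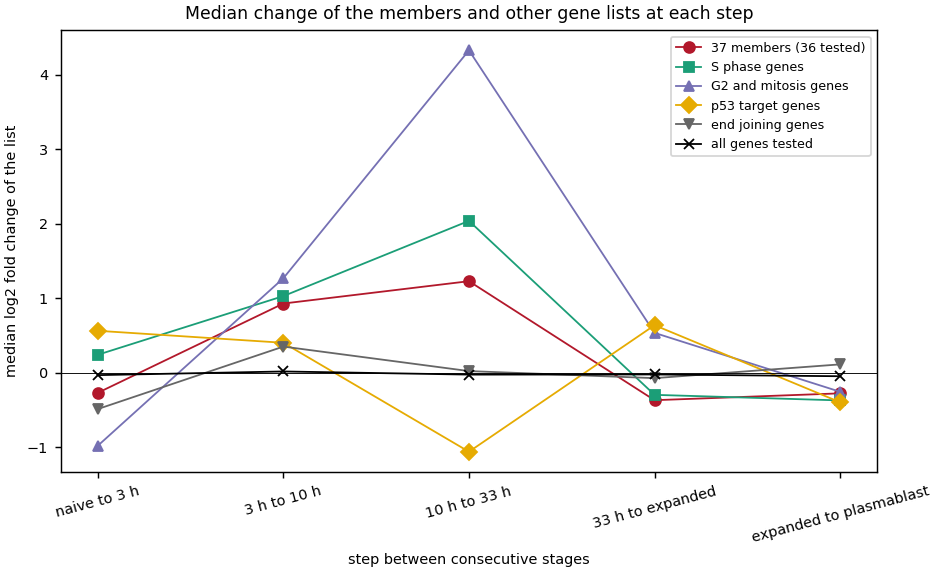
Median log2 fold change (vertical axis) of the tested members and of 4 other gene lists, with all tested genes for comparison, at each of the 5 steps between consecutive stages (horizontal axis). The members' median is 1.23 from 10 h to 33 h, below the 2.04 of S phase genes and the 4.33 of G2 and mitosis genes, while p53 target genes have a median of -1.06 at that step.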

How the data were processed

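RNA-seq reads were aligned by the authors to mm10 with Rsubread 1.28.0 and counted with featureCounts on its inbuilt Entrez annotation, and the submitters' processing notes also name CASAVA 1.8.2. The libraries came from a TruSeq RNA kit, and whether counting used strand is not given in the sources used here. The deposited values are raw counts per gene with an exon length, with no normalization. Of 27179 genes, unmatched identifiers and mitochondrial, ribosomal RNA, X or Y chromosome and immunoglobulin segment genes were removed after the study's methods, which left 23700, and filterByExpr kept 12750. Libraries were scaled with TMM, and all 12 were fitted in a one-way layout with edgeR 4.0.16 (R 4.3.3, limma 3.58.1) in robust quasi-likelihood mode. Changes were tested with glmTreat against 1.5-fold, and with the F-test for a change of any size, with Benjamini-Hochberg adjustment over all tested genes at 0.05. Standard errors come from the F statistic. RPKM used the deposited lengths and TMM-scaled library sizes. The smallest p that an exact two-sided permutation of 2 against 2 libraries allows is 0.333, and smaller p-values rest on the spread shared across genes and stages. The code of the fit was tried on simulated counts for the comparison of 10 h with 33 h only. All 37 members are named, in role groups, and from other lists up to 3 called genes per direction with the largest change. A gene was left out of the B cell markers and another out of the other recombination genes, and both are not reported here. The rule for the members used no measured value, but members and lists were chosen with earlier results of these data known. Alternatives covered scaling, filters, dispersion, a replicate term, DESeq2 1.42.0, fits to 4 libraries and leaving out each library. Samples were grouped by their labels. Same-numbered replicates did not deviate together, so no pairing was used.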

Additional observations from a re-analysis of the deposited data

How the results depend on the processing

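No direction of a called change was reversed under any alternative run. All calls were kept in every alternative for 10 of 13 members called from naive cells to 3 h, 12 of 19 from 3 h to 10 h, 21 of 24 from 10 h to 33 h, 1 of 2 from 33 h to expanded B cells, 3 of 3 from expanded B cells to plasmablasts, 28 of 32 from naive cells to 33 h and 8 of 16 from 33 h to plasmablasts, with Fancb included. Without a fold threshold, edgeR's F-test called 8 members up (background 34.7%) and 15 down (background 36.3%) by 3 h. From 3 h to 10 h it called 27 up (background 32.1%) and 1 down (background 30.2%). From 10 h to 33 h it called 32 up (background 23.2%) and 2 down (background 22.2%). From 33 h to expanded B cells it called 2 up (background 18.5%) and 20 down (background 21.2%). From there to plasmablasts it called 1 up (background 27.2%) and 16 down (background 29.7%). From 33 h to plasmablasts it called 5 up (background 31.6%) and 24 down (background 35.8%). Under scaling by library size alone there were 26 up from 3 h to 10 h, 11 down from expanded B cells to plasmablasts, and 0 up and 23 down from 33 h to plasmablasts. DESeq2's Wald test against 1.5-fold gave 11 up from 3 h to 10 h and 9 down from 33 h to plasmablasts. The shares of all tested genes were not computed for any alternative with a fold threshold. Counts under library size alone, DESeq2 and the other such fits therefore have no background beside them. From 33 h to expanded B cells 1 member fell, in place of 2, with DESeq2's Wald test or size factors, with at least 10 counts in every library, and without any of the 4 libraries (1 to 1), and 1 rose where only the 4 libraries were fitted. Without 1 library each, 1 to 2 members rose and 10 to 16 fell from 33 h to plasmablasts. The cause of these differences was not tested, apart from the F-test, which by construction asks for no minimum fold.

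The replicate numbers did not pair the libraries, as deviations of same-numbered samples had correlations of -0.14 to 0.084 over 15 pairs of stages. A replicate block left 22 members up from 10 h to 33 h, the lost call being that of Topbp1, and lost no other call. A wider E2F consensus was met in 6 of 31 member windows (19.4%), which belong to 5 genes since both windows of Rad51c hold it, against 2.26% of all promoter windows and 3.95% of those of tested genes. Counts of 9 to 30 in the lowest libraries limit Rad54b, Rad51b, Fancb, Rad51ap1, Bard1, Rad51c, Fancd2 and Ube2t.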

Other observations

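For genes that p53 is known to activate, the median change had the sign of the members' median at some steps and the opposite sign at others. From 3 h to 10 h 9 of 23 tested genes rose (background 17.4%) and 3 fell (background 13.4%). Their median was 0.40 there and -0.40 between expanded B cells and plasmablasts, with the same sign as the members' 0.93 and -0.28. From expanded B cells to plasmablasts 4 p53 target genes rose (background 13.9%) and 3 fell (background 12.2%). The calls at that step thus did not follow the sign of the median. At the remaining consecutive steps the medians of targets and members had opposite signs. From naive cells to 3 h 9 p53 target genes rose (background 21%) and 5 fell (background 24.3%), with a median of 0.56. Of 23 tested p53 target genes 10 fell from 10 h to 33 h (background 4.45%), with a median of -1.06. That count ran from 6 to 12 over the alternatives with a fold threshold. From 33 h to expanded B cells 7 rose (background 6.94%), with a median of 0.64. From 33 h to plasmablasts 11 rose (background 20%) and 3 fell (background 19.3%), with a median of 0.86. The rises numbered 7 where library size alone set the scale, for which no background was computed. Cdkn1a, the p21 inhibitor of cyclin-dependent kinases, had 0.554 and 0.632 RPKM (naive), 3.74 and 3.60 (3 h), 32.4 and 20.7 (10 h), 3.43 and 6.27 (33 h), 24.1 and 23.4 (expanded) and 13.0 and 15.5 (plasmablast). It was thus high at 10 h and on day 4 and low between, and it rose by 2.31 from 33 h to expanded B cells. Phlda3, an inhibitor of AKT signalling, showed the same order of 10 h over 33 h, with 39.4 and 24.7 RPKM against 3.03 and 4.41. The polo-like kinase Plk2 had 0.480 and 0.448 RPKM (33 h) and 6.36 and 7.84 (plasmablast), and Trp53inp1, a stress protein, 6.66 and 4.63 (33 h) and 206 and 186 (plasmablast). Among the genes that fell from 33 h to plasmablasts were Xpc (-1.19) and Rrm2b (-1.10), which act in excision repair and in nucleotide supply.

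Of 14 genes of non-homologous end joining, the other main route of break repair, 2 rose (background 21% of all tested genes) and 5 fell (background 24.3%) from naive cells to 3 h, with a median of -0.49. The polymerases Poll (-1.44) and Polm (-1.43) were among those that fell, and the ligase Lig3 (1.16) and the nuclease Dclre1c (1.02) rose. From 3 h to 10 h 3 rose (background 17.4%) and 1 fell (background 13.4%), with a median of 0.35, and the rises were those of the Ku subunits Xrcc6 (1.17) and Xrcc5 (0.94) and of Poll (1.19). Without 3 h replicate 2, 5 rose at that step. From 10 h to 33 h 1 rose (Polm, 0.89, background 10.1%), with a median of 0.02, and the count ran from 0 to 2 over the alternatives with a fold threshold, with 0 without 10 h replicate 2 or without 33 h replicate 1. Lig4, the ligase of the pathway, had 2.84 and 3.38 RPKM (33 h), 8.68 and 9.10 (expanded) and 12.1 (both plasmablast), and it rose by 1.52 from 33 h to expanded B cells. Prkdc, the DNA-dependent kinase, fell by 0.93 from 33 h to plasmablasts.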
